A study of Mus musculus with 6 samples.

Results

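Progression from G2 phase through mitosis depends on a set of genes that dividing cells switch on together and resting cells keep low. Their products drive entry into mitosis, attach chromosomes to the spindle, delay anaphase until attachment is complete, and dismantle mitotic regulators afterwards. In adult pancreatic islets most endocrine cells rest, and beta cells of obese, insulin-resistant mice are known to divide more often than those of lean mice. The 35 mitosis and G2 phase genes described here were chosen by name for these roles. All 35 were on the array, among 27827 gene names, and together they had 57 probes.

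Islets of obese mice of 2 strains were compared on Agilent arrays with 1 colour, on which the brightness of a Cy3 dye at a probe reads the abundance of a transcript. NZO samples came from male NZO/HiBomDife mice, labelled diabetes-prone, and B6-ob/ob samples from male C57BL/6.V-Lepob/ob mice, labelled diabetes-resistant, whose leptin gene carries the ob mutation. In both strains the animals were fed fat without carbohydrate to 18 weeks of age, and islets were collected 48 h after a diet with carbohydrate replaced it. There are 3 arrays per strain (NZO 10, 11 and 12; B6-ob/ob 4, 5 and 6), with no islets from before the diet change. Whether each sample came from a single animal or from several pooled ones is not stated, and the p-values reflect variation among these 6 samples, part of which may be technical. Levels below are log2 of the processed intensity over the array's own 75th percentile of all probes, so a step of 1 is a doubling, and levels of different probes are not set against each other.

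Of 41174 probes, 23621 to 24711 per array were called well above background by the scanner software, and array correlations over genes tested were 0.985 to 0.989 within NZO, 0.968 to 0.987 within B6-ob/ob and 0.928 to 0.948 between strains. Of 10 beta cell markers 9 were on the array and all 9 were measured, as were markers of acinar, ductal, stromal and endothelial cells. The labels of the scanner files were checked with Ifi202b and H2-Ea, which are known to be unexpressed in C57BL/6 mice: both were above background on 3 NZO and 0 B6-ob/ob arrays. All signed differences are NZO minus B6-ob/ob by those labels. Their direction opposes that of the value table deposited beside the scanner files, in which each column correlates best with an array labelled as the other strain.

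One array stands apart for these genes. B6-ob/ob 6 was low for nearly all of them, while B6-ob/ob 4 and 5 were high. The count and median of their strain differences are therefore also given without B6-ob/ob 6. Arrays B6-ob/ob 5, B6-ob/ob 6 and NZO 11 lay on 1 slide with 1 scan, and B6-ob/ob 4 shared a slide with NZO 10.

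Many promoters of mitotic genes are known to carry CCAAT boxes, bound by the factor NF-Y, and a cell cycle genes homology region (CHR) near the transcript start, which the DREAM complex binds in resting cells and the MuvB complex with B-Myb and FoxM1 binds in dividing cells. The promoters of 9 of the genes are shown because these genes span the roles below and include promoters with and without the motifs. Each run is 110 bases of RefSeq sequence on GRCm38.p6, from 100 bases before the transcript start to 10 after it, on the gene's own strand. Capitals mark the NF-Y box (CCAAT or its reverse ATTGG) and the CHR (TTTGAA or its reverse TTCAAA).
Cdk1, chr10:69352903-69353012, minus strand: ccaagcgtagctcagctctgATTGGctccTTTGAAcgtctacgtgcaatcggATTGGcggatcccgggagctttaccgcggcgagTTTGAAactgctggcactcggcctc
Ccnb2, chr9:70421545-70421654, minus strand: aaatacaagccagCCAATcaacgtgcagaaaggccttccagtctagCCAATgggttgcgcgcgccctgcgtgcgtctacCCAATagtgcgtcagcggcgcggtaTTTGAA
Cdc20, chr4:118437334-118437443, minus strand: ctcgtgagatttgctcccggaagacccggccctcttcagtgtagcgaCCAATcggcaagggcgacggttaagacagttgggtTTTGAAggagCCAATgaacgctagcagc
Top2a, chr11:99024180-99024289, minus strand: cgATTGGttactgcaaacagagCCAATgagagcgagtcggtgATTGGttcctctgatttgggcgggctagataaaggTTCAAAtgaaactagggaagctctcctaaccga
Ube2c, chr2:164769829-164769938, plus strand: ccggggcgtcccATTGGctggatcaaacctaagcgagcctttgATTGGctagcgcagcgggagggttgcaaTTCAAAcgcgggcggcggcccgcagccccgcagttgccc
Prc1, chr7:80294351-80294460, plus strand: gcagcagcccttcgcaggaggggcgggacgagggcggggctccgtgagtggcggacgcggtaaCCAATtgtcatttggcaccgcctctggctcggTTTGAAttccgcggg
Kif11, chr19:37376282-37376391, plus strand: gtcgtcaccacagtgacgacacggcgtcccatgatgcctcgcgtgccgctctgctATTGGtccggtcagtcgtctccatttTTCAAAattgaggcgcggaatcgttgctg
Ccnb1, chr13:100786477-100786586, minus strand: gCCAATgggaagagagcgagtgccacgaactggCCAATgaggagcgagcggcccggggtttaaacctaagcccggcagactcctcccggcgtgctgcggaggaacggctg
Birc5, chr11:117849137-117849246, plus strand: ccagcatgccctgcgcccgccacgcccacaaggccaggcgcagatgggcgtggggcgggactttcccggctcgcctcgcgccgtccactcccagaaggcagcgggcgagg

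Cdk1 holds 2 CHR matches, the nearer beginning 15 bases before the start, and Ccnb2 holds 3 NF-Y boxes. Ccnb1 holds NF-Y boxes but no CHR match in its 300 bases, and Birc5 holds neither. The table of RefSeq promoters, each running from 250 bases before to 50 after a start, had 27 of the 35 genes. That is 77.1%, under the 80% set for a check over a list, so motif shares are void as a property of the 35 and describe these 27 promoters alone. Ccna2, Foxm1, Tpx2, Pbk, Cdc25c, Kif20a, Aurkb and Incenp were not in it.

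Of these 27 genes, 22 held an NF-Y box (81.5%, against 41.1% of 27025 genes in the table), and 16 held at least 2 (59.3%, against 13.3%). A CHR match was present in 20 (74.1%, against 20.2%), and 19 held both motifs (70.4%, against 7.97%). Most CHR matches sat at the transcript start: 18 genes had one beginning within 40 bases of it (66.7%, against 4.16%). With the variants TTCGAA and CTTGAA (reverse TTCAAG) included, 21 of 27 had a CHR form (77.8%, against 32.5%). Among 63 other mitosis genes with a promoter in the table, 68.3% held an NF-Y box, 60.3% a CHR match and 46% both. Among 30 S phase genes these shares were 56.7%, 20% and 10%. The motifs are thus not particular to the 27 genes. No NF-Y box and no CHR form were found in Birc5, Mad2l1, Nuf2 and Nusap1. These letters mark matches, not measured binding, and both strands were searched, with matches allowed to overlap.

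**Figure D1:**
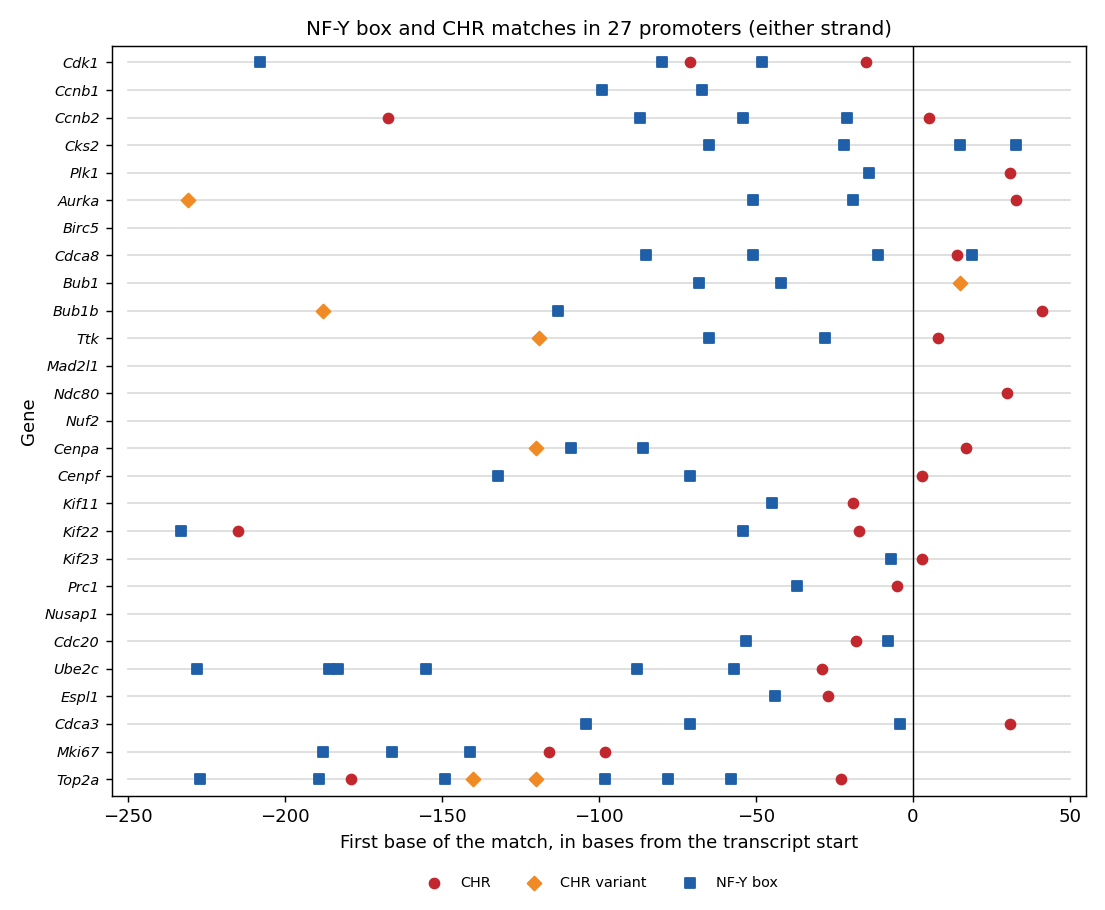
Positions of NF-Y box (blue squares), CHR (red circles) and CHR variant (orange diamonds) matches on either strand in the promoters of 27 mitosis and G2 phase genes, as the first base of each match in bases from the transcript start (x axis), 1 gene per row (y axis, first promoter listed). In 18 genes a CHR match begins within 40 bases of the start, and 4 genes have no match.

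Across the genes as a group, B6-ob/ob 4 and 5 carried high levels, the NZO arrays lower and nearly equal ones, and B6-ob/ob 6 the lowest. Of the 35 genes, 33 had a probe above background on at least 3 of 6 arrays and were tested. Their mean level was 0.96 on B6-ob/ob 4, 0.19 on B6-ob/ob 5 and -3.45 on B6-ob/ob 6, against -2.22, -2.52 and -2.43 on NZO 10, 11 and 12. The mean over arrays was -2.39 ± 0.16 (SD, n = 3) in NZO and -0.77 ± 2.36 (SD, n = 3) in B6-ob/ob. The B6-ob/ob arrays therefore lie on both sides of the NZO arrays, and the groups overlap. Between 29 and 33 of the 35 genes were above background on an NZO array, 35 on B6-ob/ob 4, 34 on B6-ob/ob 5 and 27 on B6-ob/ob 6.

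The order of the B6-ob/ob arrays, 4 above 5 above 6, held for 32 of 33 genes, against 33.6% of all genes tested. B6-ob/ob 4 and 5 both exceeded all NZO arrays in 32 of 33, against 29.1%. B6-ob/ob 6 lay below all NZO arrays in 27 of 33, against 37.3%, within them in 5 (Incenp, Bub1, Bub1b, Mad2l1 and Kif23) and above them in Prc1. Of these 27 genes, 21 were well above background on B6-ob/ob 6 and on every NZO array. Ccnb1, Tpx2 and Espl1 were not on B6-ob/ob 6, and Cdc25c, Ndc80 and Kif11 were not on B6-ob/ob 6 nor on at least 1 NZO array, so the order of their dim readings was not measured. At the level of probes, 41 of the 42 kept probes of these genes followed the order of the B6-ob/ob arrays. The exception in both counts was a probe of Bub1. Of the probes not kept, 9 were above background on no array and 6 on 1 to 2 arrays. Those silent on every array include probes of Cdk1 and Kif11.

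**Figure D2:**
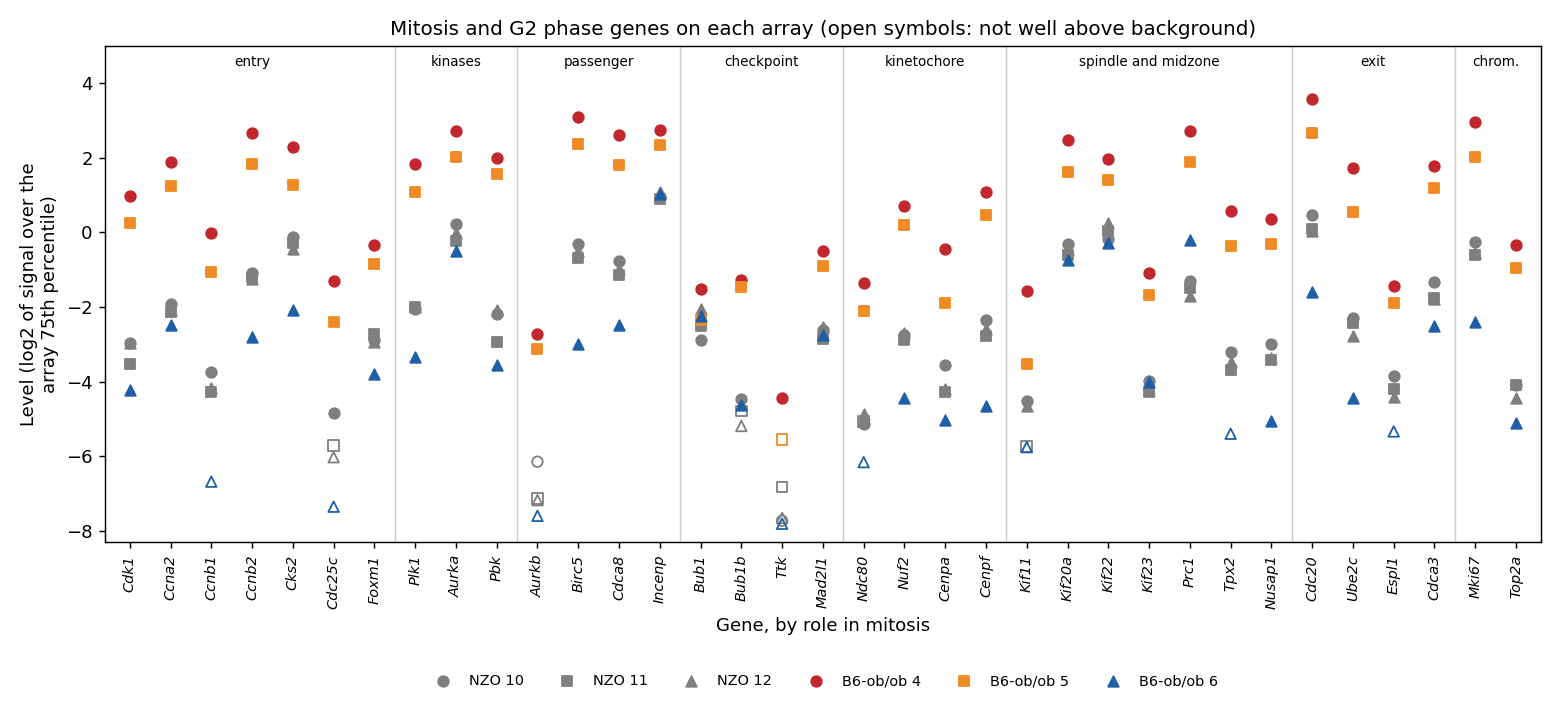
Level of each of the 35 mitosis and G2 phase genes (x axis, grouped by role) on each array (y axis, log2 of processed intensity over the array's 75th percentile), 1 symbol per array, with open symbols where the probe was not well above background. B6-ob/ob 4 and 5 (red, orange) lie above the 3 NZO arrays (grey) in 32 of the 33 genes tested, and B6-ob/ob 6 (blue) lies below them in 27.

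Compared between strains on all 6 arrays with limma, all 33 differences were negative, from -2.95 to -0.46 on the log2 scale, with a median of -1.59 against -0.03 over all 16418 genes tested. Only Prc1 passed an adjusted p of 0.05 (Benjamini-Hochberg over 16418 genes), 1 of 33, against a background of 9% of all genes called lower in NZO. By limma, 0 genes of the set were called higher in NZO (also 0 at an unadjusted p), where the background is 13.2%, and 4 of 33 had an unadjusted p under 0.05 with a lower level in NZO, where it is 16.2%. Prc1 was also the only one of the 33 in which all B6-ob/ob arrays exceeded all NZO arrays, against 20.4% of genes tested. The second lowest adjusted p, that of Bub1b, was 0.12. For a single value compared over 3 and 3 arrays, an exact two-sided permutation test cannot go below 0.1.

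Without B6-ob/ob 6, 31 of 33 genes were lower in NZO by limma's adjusted p, against a background of 9.5%, with a median difference of -3.23. The levels on the remaining B6-ob/ob arrays were 2.98 to 18.1 times those on NZO arrays among these 31. Of the 31, Cdc25c and Bub1b were well above background on only 1 NZO array and Ndc80 on 2. Their folds rest partly on unmeasured NZO levels. Bub1 (adjusted p = 0.31) and Kif11 (adjusted p = 0.059) were not called. B6-ob/ob 6 was left out after its values were seen, so no count or p-value without it, here or below, stands as independent support. Without B6-ob/ob 4 the count was 1 of 33 (background 7.75%) and the median -0.65, and without B6-ob/ob 5 it was 0 of 33 (background 3.87%) and the median -1.10. It was also 0 of 33 without NZO 10, 11 or 12 (backgrounds 4.96%, 4.51% and 6.65%), and 0 of 33 with slide as a fixed block (background 4.96%), where the lowest adjusted p was 0.078. In each of these limma fits with a count of 0, 1 gene of the set had an unadjusted p under 0.05.

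Within slide 2, NZO 10 and B6-ob/ob 4 differed by a median of -3.36 over these genes. Within slide 3, NZO 11 differed from the mean of B6-ob/ob 5 and 6 by a median of -0.80. On that slide the mean level was 0.19 on B6-ob/ob 5 and -3.45 on B6-ob/ob 6, so a gap of that size stood between arrays of 1 strain, slide and scan.

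**Figure D3:**
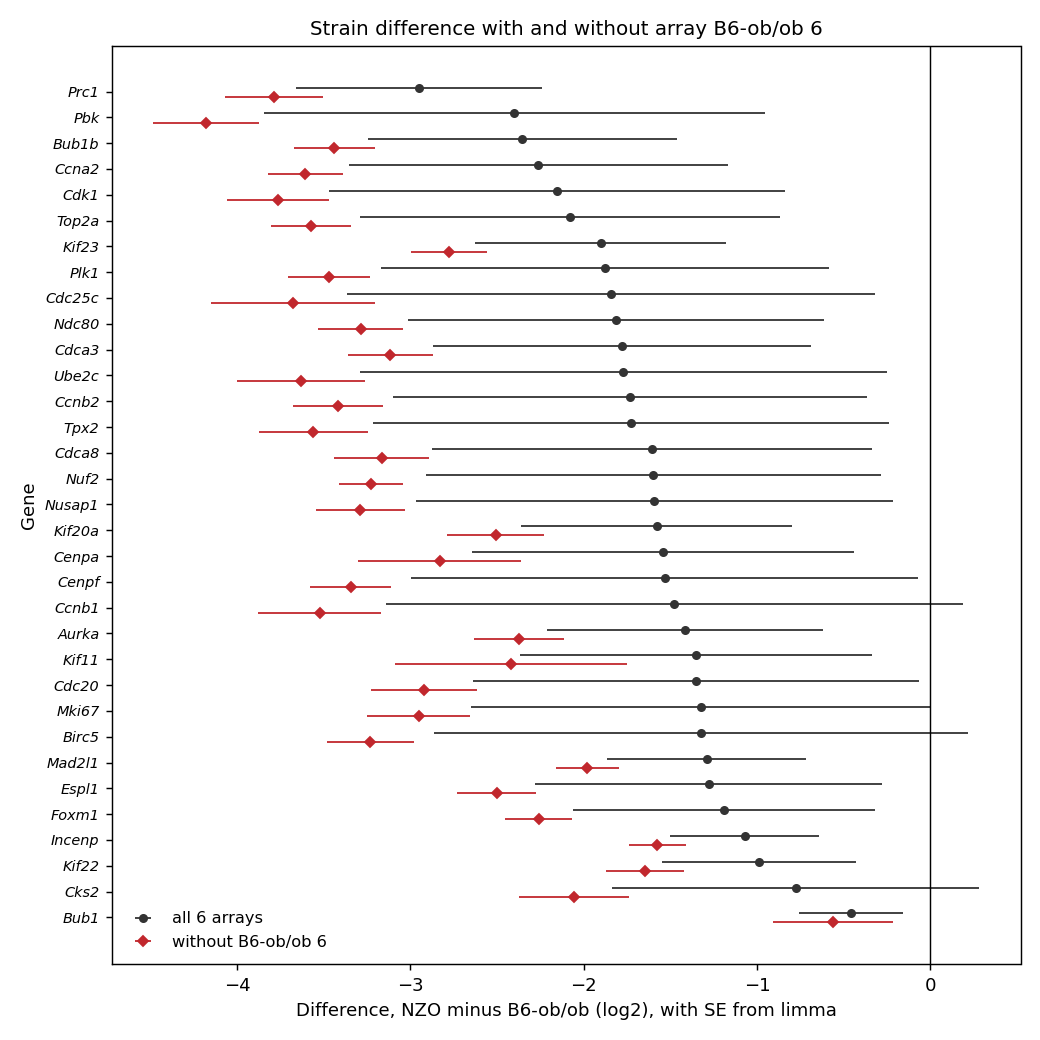
Difference between strains (x axis, NZO minus B6-ob/ob, log2) for each of the 33 genes tested (y axis), with the SE from limma, on all 6 arrays (black circles) and without B6-ob/ob 6 (red diamonds). All differences are negative, 1 of 33 is called on all arrays and 31 of 33 without B6-ob/ob 6.

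Cdk1, the kinase whose activation by cyclins drives cells into mitosis, was read by a probe at chr10:68805423-68807832 (mm9, as given in the scanner files, where it is named Cdc2a). Its level was 0.97, 0.26 and -4.22 on B6-ob/ob 4, 5 and 6 and -2.96, -3.53 and -2.96 on NZO 10, 11 and 12. The first pair of B6-ob/ob arrays lay above every NZO array and B6-ob/ob 6 below every one. Its difference was -2.15 ± 1.32 (SE, limma adjusted p = 0.31), and -3.77 ± 0.29 without B6-ob/ob 6 (adjusted p = 0.0017). Another Cdk1 probe was above background on no array.

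Cyclin A2 (Ccna2), which works with Cdk1 in G2 and early mitosis, stood at 1.88, 1.25 and -2.48 on the B6-ob/ob arrays and at -1.92, -2.14 and -2.07 on the NZO arrays. Cyclin B2 (Ccnb2) stood at 2.66, 1.83 and -2.81 against -1.09, -1.19 and -1.24. Again both groups overlap only because B6-ob/ob 6 falls under the NZO arrays. Cyclin B1 (Ccnb1), the main mitotic partner of Cdk1, had an SD of 3.58 over the B6-ob/ob arrays. Its levels were -0.01, -1.07 and -6.68, against -3.74, -4.28 and -4.18 in NZO, and on B6-ob/ob 6 its probe was not well above background, so that SD rests on an unmeasured level. All 3 Ccnb1 probes followed the same order among B6-ob/ob arrays.

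Foxm1, a transcription factor that activates G2 and mitotic genes, was at -0.33, -0.85 and -3.79 in B6-ob/ob and at -2.89, -2.71 and -2.94 in NZO. Cks2, which binds Cdk1 as a small adaptor, and Cdc25c, the phosphatase that activates Cdk1, followed the same order. Over the 7 genes of mitotic entry, the level on B6-ob/ob 4 was 11.1 to 48.3 times that on B6-ob/ob 6. For Ccnb1 and Cdc25c the lowest signal well above background stood in for B6-ob/ob 6, so their ratios are approximate lower bounds. Readings on B6-ob/ob 6 were below the NZO arrays in all 7, with Cdc25c not well above background there nor on NZO 11 and 12, and all 7 were called without that array.

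Among the mitotic kinases, Polo-like kinase 1 (Plk1), needed for centrosome maturation and cytokinesis, had the most even NZO levels of the set. They were -2.041, -2.005 and -1.997, with an SD of 0.024, while the B6-ob/ob arrays gave 1.83, 1.08 and -3.33. Aurora A (Aurka), which acts at centrosomes and spindle poles, was at 2.73, 2.01 and -0.50 in B6-ob/ob and at 0.23, -0.22 and -0.02 in NZO. B6-ob/ob 6 was again the lowest of the 6 arrays for Aurka. Pbk, a kinase found in proliferating cells, had the largest difference without B6-ob/ob 6 at -4.18 ± 0.31 (SE), an 18.1-fold higher level on B6-ob/ob 4 and 5 than in NZO.

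The chromosomal passenger complex corrects faulty chromosome attachments and later guides cytokinesis. Birc5 (survivin), one of its targeting subunits, had an SD of 3.32 over the B6-ob/ob arrays, all 3 of which measured it. Its levels were 3.09, 2.38 and -2.99 on B6-ob/ob 4, 5 and 6 and -0.30, -0.69 and -0.50 in NZO, so the signal on B6-ob/ob 4 was 67.7 times that on B6-ob/ob 6. Its promoter printed above holds neither motif, like those of Mad2l1, Nuf2 and Nusap1. Their ratios of B6-ob/ob 4 over 6 were 4.83, 35.2 and 43.1. Cdca8 (borealin) followed the same order.

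Incenp, the scaffold of the passenger complex, moved least with the rest apart from Bub1, with an SD of 0.90 in B6-ob/ob. It stood at 2.75, 2.35 and 1.03 there and at 0.96, 0.89 and 1.08 in NZO, which places B6-ob/ob 6 inside the NZO range. Its difference was -1.07 ± 0.43 (SE, limma adjusted p = 0.13), and -1.58 ± 0.16 without B6-ob/ob 6 (adjusted p = 0.0035). Aurora B (Aurkb), the kinase of the complex, was above background only on B6-ob/ob 4 and 5, at -2.72 and -3.12, and was not tested. Its mean level on B6-ob/ob 4 and 5 was 5.28-fold the lowest signal well above background, averaged over the NZO arrays. That is not a strict bound, since dim probes of other genes can read higher, such as Bub1b at -4.78 on NZO 11. No bound is given over all B6-ob/ob arrays, because Aurkb was not well above background on B6-ob/ob 6.

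Of the spindle checkpoint genes, which hold back anaphase, Mad2l1 was at -0.48, -0.89 and -2.76 in B6-ob/ob and at -2.62, -2.85 and -2.53 in NZO. B6-ob/ob 6 lay within the NZO range for this gene. Bub1b (BubR1) gave -1.28, -1.47 and -4.63 against -4.47, -4.78 and -5.19, with B6-ob/ob 6 inside the NZO range, although NZO 11 and 12 were not well above background. Ttk (Mps1), the kinase that starts checkpoint signalling, was above background only on B6-ob/ob 4, at -4.44, and was not tested.

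Bub1, a checkpoint kinase, is the case where kept probes of a gene disagreed on the order of the B6-ob/ob arrays. Its brightest probe, at chr2:127626326-127626385 (mm9), had the smallest B6-ob/ob SD of the set, 0.46, with levels of -1.50, -2.34 and -2.23 in B6-ob/ob and -2.88, -2.51 and -2.05 in NZO. The other kept probe gave -1.61, -2.13 and -7.64 against -5.28, -5.93 and -5.16. It was well above background on 3 arrays, 1 of them NZO, and not on B6-ob/ob 6, so it shows B6-ob/ob 4 and 5 above the NZO arrays but not where B6-ob/ob 6 lay. The rule of taking the brightest probe therefore decides how Bub1 appears here.

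At kinetochores, where spindle microtubules meet the chromosome, Ndc80, the microtubule-binding subunit, stood at -1.36, -2.10 and -6.15 in B6-ob/ob and at -5.14, -5.06 and -4.86 in NZO. It was not well above background on B6-ob/ob 6 and 1 NZO array. Cenpa, the histone H3 variant that marks the centromere, was at -0.45, -1.89 and -5.04 against -3.55, -4.26 and -4.20. Cenpf, a large kinetochore protein that accumulates in G2, was at 1.07, 0.48 and -4.66 against -2.34, -2.78 and -2.59. With Nuf2, the partner of Ndc80, all 4 kinetochore genes had their lowest reading on B6-ob/ob 6, and all 4 were called without it.

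Among spindle genes, Prc1, the microtubule bundler of the central spindle, was the only gene of the set called on all 6 arrays. Its probe lies at chr7:87461038-87461093 (mm9). It stood at 2.72, 1.88 and -0.21 on B6-ob/ob 4, 5 and 6 and at -1.29, -1.49 and -1.69 on NZO 10, 11 and 12, so B6-ob/ob 6 was the lowest of its strain but above all NZO arrays. The mean level was 1.46 ± 1.51 (SD, n = 3) in B6-ob/ob and -1.49 ± 0.20 (SD, n = 3) in NZO, a difference of -2.95 ± 0.71 (SE, limma adjusted p = 0.031), and -3.79 ± 0.28 without B6-ob/ob 6. It lost the call with slide as a fixed block and without NZO 10, 11 or 12 or B6-ob/ob 5 in turn.

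The motor Kif11 (Eg5), which pushes spindle poles apart, was at -1.58, -3.53 and -5.75 in B6-ob/ob and at -4.52, -5.74 and -4.66 in NZO, and was not well above background on B6-ob/ob 6 and NZO 11. It had the largest gap between B6-ob/ob 4 and 5, 3.87-fold, where the median of the 33 genes was 1.64-fold. Kif20a, a motor of the central spindle, was at 2.49, 1.61 and -0.74 against -0.30, -0.59 and -0.48. Tpx2, which activates Aurora A and promotes microtubule growth, was at 0.58, -0.37 and -5.39 against -3.21, -3.68 and -3.48, and was not well above background on B6-ob/ob 6.

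The remaining spindle genes were Kif22, a motor that binds chromosome arms, Kif23, a component of centralspindlin, and Nusap1, which bundles microtubules near chromosomes. All 3 followed the order of the B6-ob/ob arrays, with B6-ob/ob 6 inside the NZO range for Kif23 alone. Of the 7 spindle genes, 6 were called without B6-ob/ob 6.

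For the exit from mitosis, Cdc20, which turns the anaphase-promoting complex on at metaphase, stood at 3.58, 2.67 and -1.59 in B6-ob/ob and at 0.47, 0.08 and 0.05 in NZO. Ube2c, the ubiquitin-conjugating enzyme of that complex, stood at 1.72, 0.56 and -4.44 against -2.28, -2.42 and -2.77. Ube2c had the widest measured ratio of the set, 71.3-fold from B6-ob/ob 4 to 6, while its difference between strains was -1.77 ± 1.52 (SE, limma adjusted p = 0.47), and -3.63 ± 0.37 without B6-ob/ob 6 (adjusted p = 0.0033). Espl1 (separase), which cleaves cohesin, and Cdca3, which promotes degradation of the kinase Wee1, lay in the same order, with B6-ob/ob 6 below all NZO arrays.

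Of the chromosome proteins, Mki67, the coat of mitotic chromosomes used as the Ki-67 marker of cycling cells, stood at 2.95, 2.03 and -2.40 in B6-ob/ob and at -0.25, -0.59 and -0.54 in NZO. Its level on B6-ob/ob 4 was 40.8 times that on B6-ob/ob 6, and its strain difference was -1.32 ± 1.33 (SE, limma adjusted p = 0.54), and -2.95 ± 0.30 without B6-ob/ob 6 (adjusted p = 0.0032). Topoisomerase II alpha (Top2a), which untangles sister chromatids, was at -0.33, -0.94 and -5.12 against -4.09, -4.09 and -4.44. Both genes again had B6-ob/ob 6 as the lowest array of the 6.

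The contrast between B6-ob/ob arrays was set against all genes. Levels on B6-ob/ob 4 and 5 were both at least 2 above B6-ob/ob 6 on the log2 scale in 29 of 33 mitosis and G2 genes, against 0.731% of genes tested, which is 120 genes. Of these 120 genes 70 (58.3%) were on the list of 35, a list of other mitosis genes or a list of S phase genes, which hold 0.81% of the genes tested. The lists were chosen with earlier results of these data known, so this share does not stand as independent support. B6-ob/ob 6 exceeded both other arrays by that margin in 0 of 33, against 0.0365%, or 6 genes. The B6-ob/ob arrays spanned at least 2 in 31 of 33 genes, against 2.92%. In whole-islet samples, fewer dividing cells and less RNA per cell cannot be told apart.

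**Figure D4:**
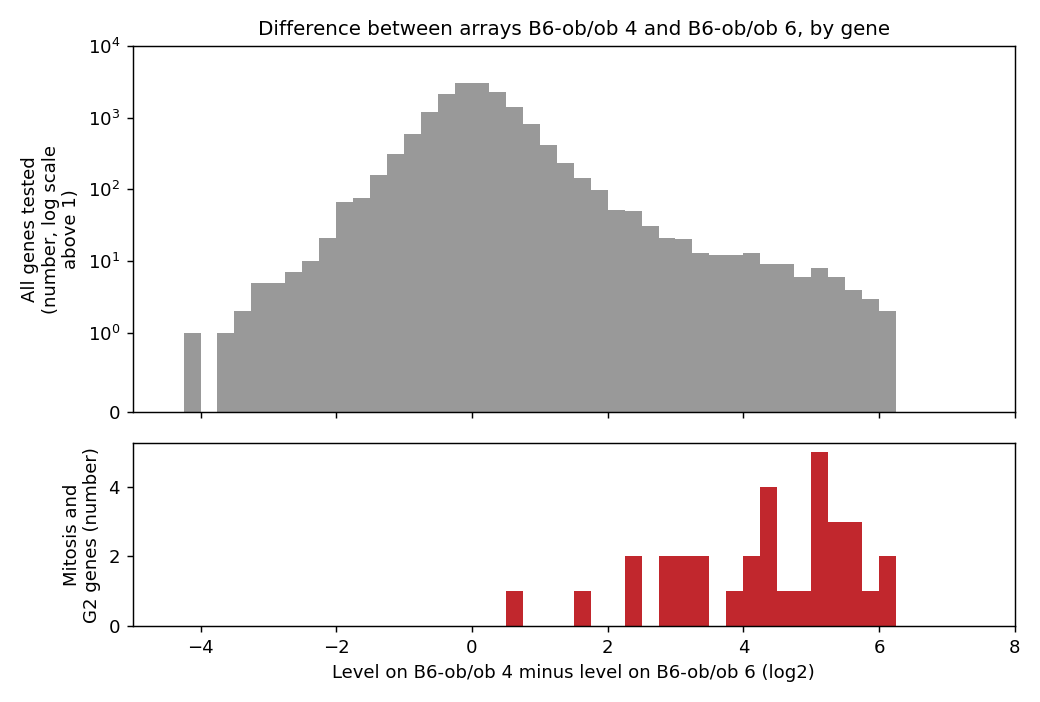
Level on B6-ob/ob 4 minus level on B6-ob/ob 6 (x axis, log2, bins of 0.25) for all genes tested (top, number of genes, log scale above 1) and for the 33 mitosis and G2 genes (bottom). The median was 0.04 over all genes and 4.35 over the mitosis and G2 genes, which lie in the right tail of the upper plot.

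Other genes of the cell cycle were taken from lists. Of 66 measured genes of a list of 80 other mitosis genes, 60 followed the order 4 above 5 above 6 (90.9%, against 33.6%), and limma called 9 lower in NZO on all arrays (13.6%, against 9%) and 0 higher (against 13.2%), with 0 higher also at an unadjusted p under 0.05. Without B6-ob/ob 6, left out after its values were seen, 58 were called lower (87.9%, against 9.5%). With slide as a fixed block 5 were (7.58%, against 4.96%). Of the 9, the greatest differences were those of Pttg1, Psrc1, Spc25, Ska2 and Fbxo5. Pttg1 (securin), which restrains separase, departed from the pattern: it stood at 2.63, 2.90 and 2.97 on the B6-ob/ob arrays and at 0.20, -0.06 and -0.26 in NZO, with B6-ob/ob 6 the highest array (-2.87 ± 0.17, SE, limma adjusted p = 0.000253).

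Spc25, a partner of Ndc80 at the kinetochore, likewise separated the strains on every array, at 5.29, 5.16 and 4.92 in B6-ob/ob against 3.27, 2.92 and 3.70 in NZO. Psrc1, Ska2 and Fbxo5 lay in the order 4 above 5 above 6 among B6-ob/ob arrays, and their strain differences were -2.36, -1.61 and -1.58. Ska2 was well above background on only 4 of 6 arrays, so its difference rests partly on unmeasured levels. The other 4 called genes of this list were Fam83d, Pkmyt1, Hmgb2 and Hjurp.

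S phase genes, which copy the genome before G2, followed the same order with smaller steps. Of 34 measured of a list of 36, 28 had B6-ob/ob 4 above 5 above 6 (82.4%, against 33.6%), and the median ratio of B6-ob/ob 4 over 6 was 2.97, against 20.5 for the mitosis and G2 genes. Mcm2, a subunit of the replicative helicase (-1.30 ± 0.33, SE), and Cdc7, the kinase that fires origins (-0.79 ± 0.20, SE), were called lower in NZO. That is 5.88% of the list, below the 9% of all genes, and both calls were lost with slide as a fixed block (limma adjusted p = 0.091 and 0.12). Limma called 0 higher, also at an unadjusted p under 0.05. Without B6-ob/ob 6, left out after its values were seen, 30 of 34 were called lower (88.2%, against 9.5% of all genes).

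Core subunits of the anaphase-promoting complex, which Cdc20 and Ube2c serve, showed a much smaller contrast. All 13 were measured. The order 4 above 5 above 6 held for 7 (53.8%, against 33.6%), and B6-ob/ob 4 and 5 both exceeded all NZO arrays in 9 (69.2%, against 29.1%). Limma called 0 lower in NZO (against 9%) and 0 higher (against 13.2%). Without B6-ob/ob 6 it called 0 in either direction, where 9.5% of all genes were lower. At an unadjusted p under 0.05, 2 were lower in NZO (15.4%, against 16.2%). The median ratio of B6-ob/ob 4 over 6 among the 13 was 1.18. The cohesin list, whose ring holds sister chromatids together, had a median ratio of 0.947 over 9 measured genes. Pds5a alone was called lower in NZO (-0.86), or 11.1% of the list against 9%, and 0 were called higher (against 13.2%). The Pds5a call was lost without B6-ob/ob 6 (limma adjusted p = 0.055) and with slide as a fixed block (limma adjusted p = 0.11).

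The list of genes of the DREAM and MuvB complexes and of NF-Y, which are known to act on such promoter motifs, had a median strain difference of 0.07. Of 16 measured, 11 were not called. Tfdp2, Lin37, Lin52 and Nfyc were called lower in NZO (-1.10, -0.56, -0.52 and -0.51), which is 25% against 9% of all genes. Rbl2 (p130), a pocket protein of DREAM, was called higher (0.79), or 6.25% against 13.2%. With slide as a fixed block Tfdp2 alone of these 5 kept its call (limma adjusted p = 0.022). The others had limma adjusted p from 0.065 to 0.14. Without B6-ob/ob 6, left out after its values were seen, Lin52 and Nfyc lost their calls. In that fit 3 of 16 were called lower (18.8%, against 9.5% of all genes) and 1 higher, with a median difference of -0.09. The 3 include a gene not called on all 6 arrays. The median ratio of B6-ob/ob 4 over 6 was 1.01. Among 15 measured genes of cell cycle arrest, limma called 1 lower in NZO (6.67%, against 9%) and 1 higher (6.67%, against 13.2%). Cdkn1b (p27), called lower, stood at 0.69, 0.70 and 0.67 in B6-ob/ob and at -1.17, -1.20 and -1.13 in NZO (-1.85 ± 0.10, SE, limma adjusted p = 0.000203). Cdkn1c (p57), which blocks cyclin-dependent kinases as p27 does, was higher in NZO by 1.12, a call lost with slide as a fixed block (limma adjusted p = 0.056).

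The 10 genes outside the lists whose 6 levels correlated most with the mean of the 33 are given as a description, over 6 arrays, in which B6-ob/ob 4, 5 and 6 set most of the spread. They were Lockd, a long noncoding RNA next to Cdkn1b (Pearson r = 0.999), H2az2, Sapcd2, Sccpdh, Fam111a, Stmn1, Traip, Arhgef39, Dapl1 and Mxd3, with the lowest r at 0.994. A high r did not require a wide range. Lockd was 5.17 higher on B6-ob/ob 4 than on 6 (log2), Sapcd2 4.91 and Stmn1 (stathmin, which destabilises microtubules) 3.96, while Sccpdh was higher by 0.54 and H2az2 by 0.82.

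Most markers of acinar, ductal, stromal and endothelial cells followed the same order of the B6-ob/ob arrays, with smaller steps. Their median ratios of B6-ob/ob 4 over 6 were 3.02, 1.77, 2.22 and 1.32, against 20.5 for the mitosis and G2 genes. Of 16 measured acinar markers, 14 were in the order 4 above 5 above 6, against 33.6% of all genes tested. Their summed level (linear, relative to the 75th percentile) was 932, 522 and 289, against 1861 to 2892 in NZO. Ductal markers (8 of 10 in that order) summed to 475, 303 and 216 in B6-ob/ob and to 339 to 480 in NZO. Stromal markers (9 of 12) summed to 31.9, 21.8 and 19.0 against 75.7 to 85.5, and endothelial markers (8 of 10) to 53.6, 52.5 and 49.1 against 55.9 to 69.5. Acinar, stromal and endothelial sums were higher on every NZO array than on B6-ob/ob 4, and the ductal sum on B6-ob/ob 4 lay within the NZO range. The part of these cells in the contrast among B6-ob/ob arrays was not tested.

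While 33.6% of all genes tested were in the order 4 above 5 above 6, the share in the reverse order was not computed. Of 9 beta cell markers, 1 was in the order 4 above 5 above 6 and 6 were in the reverse order. Their summed level was 2970, 2395 and 2478 on B6-ob/ob 4, 5 and 6 against 2519 to 2883 in NZO, while their mean log2 level was 4.66, 5.01 and 5.50 against 4.84, 4.67 and 5.05. The sum was thus highest on B6-ob/ob 4 and the mean log2 level highest on B6-ob/ob 6. Of 10 measured myeloid markers 8 were in the reverse order, with sums of 6.43, 6.62 and 7.59 against 14.1 to 28.1 in NZO. Of 12 lymphocyte markers 5 were measured, with sums of 0.179, 0.103 and 0.126 against 1.32 to 2.20, and Cd3g, Cd4, Cd8a, Cd79a and Ms4a1 were above background on no array. Erythroid markers, of which 3 were measured, all followed the order 4 above 5 above 6. Other endocrine markers had 0 of 7 in that order, with sums of 998, 987 and 911 against 913 to 1064. Among 14 housekeeping genes the median ratio of B6-ob/ob 4 over 6 was 1.09.

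**Figure D5:**
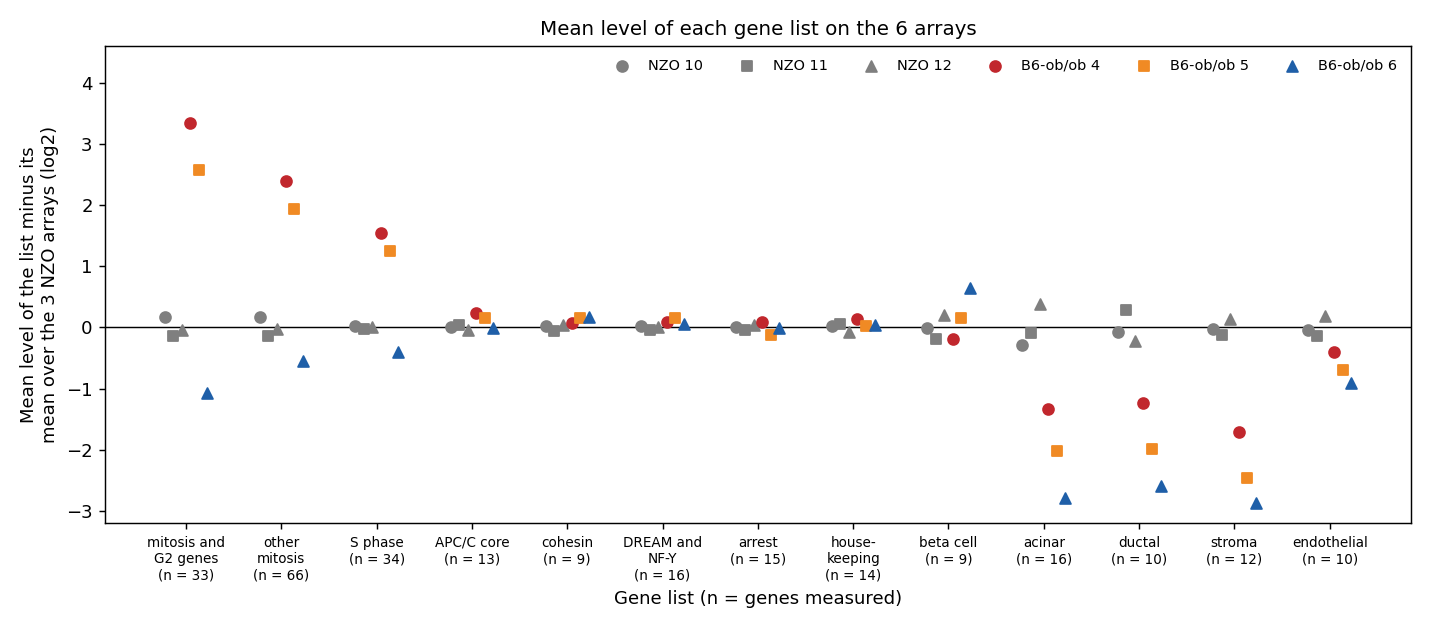
Mean level of each gene list on each array, shown relative to that list's mean over the 3 NZO arrays (y axis, log2), with the number of genes measured under each list (x axis) and 1 symbol per array. The mitosis and G2 genes, other mitosis genes and S phase genes have B6-ob/ob 4 and 5 above and B6-ob/ob 6 below the NZO arrays, while acinar, ductal, stromal and endothelial markers lie below the NZO mean on all 3 B6-ob/ob arrays.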

How the data were processed

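Total RNA of islets was measured in 3 NZO and 3 B6-ob/ob samples, 1 array each. The deposited scanner files hold each spot's processed intensity, which the scanner software had corrected for background and spatial trend (per the file headers, Agilent Feature Extraction 10.5.1.1; the submitters' processing notes name 9.1). The deposited value table, also of intensities, was used as an alternative; normalisation of that table is not given in the sources used here. Its column medians are 21.3, 21.4 and 21.4 for NZO 10, 11 and 12 and 22.1, 21.4 and 22.4 for B6-ob/ob 4, 5 and 6. Its scale is linear and uncentred, and each column correlates best (r 0.966 to 0.984) with an array labelled as the other strain, for a reason not known.

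From the scanner files, log2 intensities were averaged per probe, with control spots left out and 61 to 76 outlier spots per array treated as missing, and lowered by each array's 75th percentile (342 to 453 in intensity). No probe was saturated. Probes above background on at least 3 of 6 arrays were kept (24628 of 41174), and the brightest kept probe stood for a gene. The groups were compared in limma 3.58.1 under R 4.3.3 (lmFit, eBayes, two-sided, Benjamini-Hochberg over 16418 genes, threshold 0.05), with functions tested on simulated data. Some probes were not well above background on B6-ob/ob 6. Their folds over that array use the higher of their own reading and the array's lowest signal well above background. Old names were updated through RefSeq tables of GRCm38.p6 (25097 probes by accession, 7973 by symbol, 8104 kept as in the files). Arrays carry no counts, so their number limits the precision.

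The 35 genes and the other lists were chosen with earlier results of these data known. Levels on all arrays were to be given for 23 genes, those called, and the 2 with the smallest and the 2 with the largest B6-ob/ob SD. Of other lists they were to be given for at most 5 called genes per direction. Levels of Bub1b and the ratios of Mad2l1, Nuf2 and Nusap1 were added after their values were seen. Alternatives covered background, scaling, filter, probe summary, value table, slide, array weights, the prior variance, and leaving out each array.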

Additional observations from a re-analysis of the deposited data

How the results depend on the processing

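No paired analysis was possible because the strains share no replicate number, and slide stood as the block. With the deposited value table, whose columns follow arrays of the other strain, every value that could be computed for a named gene turned its sign: the median difference became 1.63, 0 genes of the set were lower and 1 higher in NZO, 0 and 10 other mitosis genes, and 0 and 2 S phase genes. The differences there were 1.36 for Mki67, 2.25 for Ccna2, 2.11 for Ccnb1, 1.72 for Ccnb2, 2.17 for Cdk1, 1.23 for Foxm1, 1.88 for Plk1, 1.38 for Aurka, 1.29 for Birc5 and 0.48 for Bub1. They were 1.90 for Ndc80, 1.61 for Cenpa, 1.59 for Cenpf, 1.54 for Kif20a, 2.93 for Prc1, 1.79 for Tpx2, 1.32 for Cdc20, 1.79 for Ube2c, 1.31 for Mad2l1 and 1.04 for Incenp. Kif11 and Top2a had no value there. Under the other alternatives run, all 436 values of 22 named genes were below 0. Cks2, outside those 22, turned its sign without B6-ob/ob 4, with a difference of 0.12. In that fit 32 of the 33 genes tested had a negative difference.

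Without the filter on dim probes, 0 genes of the set, 3 other mitosis genes and 0 S phase genes were lower in NZO, and slide as a fixed block gave 2329 genes in all, 0, 5 and 0. Array weights gave 6923, 22, 46 and 25. Within slide 2 the median difference was -3.36. Leaving out 1 array at a time gave 1933 to 3574 genes in all, 0 to 31 of the set (most without B6-ob/ob 6), 2 to 58 other mitosis genes and 0 to 30 S phase genes. The cause was not tested.

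The mean level on NZO 10, 11 and 12 was -1.43, -1.57 and -1.54 with normexp and quantile normalisation, -2.49, -2.78 and -2.71 without the filter, and -1.67, -1.91 and -1.82 with probes above background on all arrays. Scaled to the array median, which shifts every gene upward, it was 1.49, 1.11 and 1.16, and 4.64, 3.94 and 0.27 on B6-ob/ob 4, 5 and 6. With 250 bases before the start alone, 37% of the 27 promoters had a CHR match and 51.9% a CHR form, and the shares with an NF-Y box besides were also 37% and 51.9%. Probes near background on B6-ob/ob 6 limit the size of a ratio over that array.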
